A study of Mus musculus with 2 samples.

Results

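Type I interferon-stimulated genes were examined as a list of 39 named genes on 2 arrays, 1 for gamma/delta T cells and 1 for naive T cells that carry CD8 and an alpha/beta receptor. The members were taken by gene symbol: every probe set whose platform annotation gives a single symbol, and that symbol one of the 39. The rule found 57 probe sets for 36 members, out of 18193 genes on the array. Isg15, Ifi44 and Ly6a had no probe set with their symbol alone and were not analysed here as genes.

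The source of both preparations was lymph nodes taken from C57BL/6 mice, and both are labelled naive. The gamma/delta preparation is labelled CD44- and the other CD8+, each was purified by negative selection, and no genetic change or treatment is given for either group. The labels do not give age, sex or how many mice each came from. By its title the study is about the kinase Blk in IL-17-producing gamma/delta cells. Each preparation was hybridised to 1 Affymetrix MOE430 2.0 array, so there is no replicate, no error between samples and no test, and every difference is one between these 2 preparations. In such bulk RNA, more positive cells and more RNA per cell cannot be told apart.

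Type I interferons bind a receptor of the chains Ifnar1 and Ifnar2. Janus kinases then activate STAT proteins, which enter the nucleus with Irf9 and bind interferon-stimulated response elements. The induced genes include enzymes that attack viral RNA, sensors that detect it, transcription factors that amplify the response and proteases or ligases that end it. Resting lymphocytes keep part of this programme on at a low level through tonic interferon signalling.

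Signals are MAS5 values in linear, scaled units, 1 per probe set and array. The array medians were 243.3 for gamma/delta and 242.1 for alpha/beta, and the higher one served as a floor. Where several probe sets read a gene, the brightest by mean log2 signal was used. A signal below the floor was set to it. A gene below it on 1 array therefore has a bound in place of a ratio, worded as at least so many fold, and one below it on both arrays has neither. Ratios are gamma/delta over alpha/beta, and a gene was called at 2-fold or more. The segment Trgv1 of the gamma/delta receptor read 9449 against 13.7 and Cd8a read 731.1 against 8852, and Cd8b1 382.3 against 2193, with some signal of both CD8 chains on the gamma/delta array. Of the alpha/beta receptor genes sought (Tcra, Trac, Trbc1 and Trbc2), only Tcra had a probe set with its symbol alone. Tcra went against the labels, at 379.0 for gamma/delta and 170.3, under the floor, for alpha/beta. Variable segments of the alpha/beta receptor were not sought.

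Nearly the whole interferon list was higher in gamma/delta cells. Of 36 measured members, 34 had a higher signal there as deposited, against 51.6% of all genes. Of 35 members with a ratio or bound, 20 were higher by 2-fold or more in gamma/delta cells, and 0 stood that far towards alpha/beta cells. Across all genes with a ratio or bound, 5.82% and 3.93% passed in these directions. The median log2 ratio of these members was 1.07, and that of all genes 0.03. At 4-fold or more stood 8 members, against 0.68% of all genes. They made up 9.88% of the 81 genes that high and 22.9% of the members with a ratio or bound.

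The floor touched many members, and a member above it on the gamma/delta array alone had to come out higher. There were 14 such members, while 8.98% of all genes were above the floor on the gamma/delta array only, and no member was above it on the alpha/beta array only. Restricted to the 21 members above the floor on both arrays, 13 were higher by 2-fold or more in gamma/delta cells and 0 lower by as much, against 5.73% and 4.13% of all genes so measured. A log2 ratio above 0 was seen in 19 of the 21, against 52.5% of all genes so measured. The median of the 21 was again 1.07. Mx2, a GTPase of the Mx family, was the 1 member under the floor on both arrays, at 34.2 and 16.3.

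**Figure D1:**
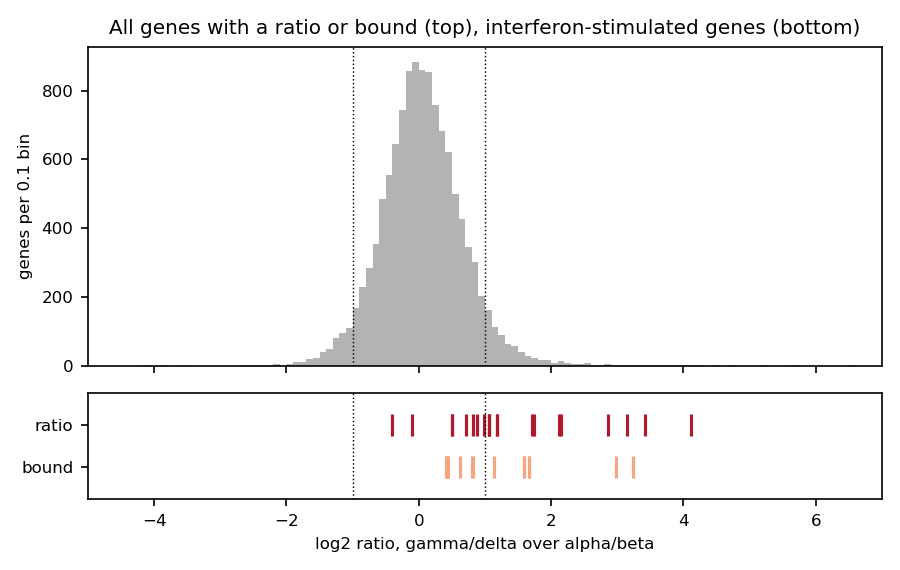
Distribution of log2 ratios (x axis, gamma/delta over alpha/beta) for all 11914 genes with a ratio or bound (bars, genes per bin) and for the 35 interferon-stimulated genes (ticks, ratios above and bounds below). The dotted lines mark 2-fold. The members lie to the right of the bulk of genes, with a median of 1.07 against 0.03, and 2 of them lie left of 0.

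Upstream sequence is shown for members of 6 functional groups, since promoters are where interferon factors are known to bind. In each group the member shown has the largest ratio or bound among those that hold the core described below. Ifit3 was added, and Stat2, among those shown, was not called. RefSeq promoters of the build GRCm38.p6 matched 28 of the 39 members by symbol, with 34 annotated starts. The 250 bases upstream of each start were searched on both strands for the core of the interferon-stimulated response element, which is GAAA, then any 2 bases, then GAAA. Of the 28 members, 10 held it (35.7%), while 3.46% of all 27025 genes in the table did. The list is one of interferon-stimulated genes, so this share describes the list and not the arrays. Any part of the element in the array difference was not tested. By promoter the counts were 10 of 34 and 2.98% of 32851. The matches below are in capitals, the rest of each sequence in lower case, and each reads from 5′ to 3′ on the strand of the gene. The windows lie at chr19:34640760-34640838, plus strand, for Ifit1, and chr19:34583348-34583441, plus strand, for Ifit3. Those of Oas3 and Rsad2 are chr5:120777700-120777759, minus strand, and chr12:26456538-26456597, minus strand. Stat2 is shown at chr10:128270251-128270310, plus strand, and Trim30a at chr7:104465195-104465254, minus strand. The last is Cxcl10 at chr5:92349068-92349127, minus strand.
Ifit1: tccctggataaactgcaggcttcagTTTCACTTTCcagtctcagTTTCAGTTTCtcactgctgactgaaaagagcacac
Ifit3: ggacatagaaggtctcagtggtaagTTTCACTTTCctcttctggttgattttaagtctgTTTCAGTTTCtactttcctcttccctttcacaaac
Oas3: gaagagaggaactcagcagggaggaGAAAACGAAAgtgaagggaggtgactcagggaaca
Rsad2: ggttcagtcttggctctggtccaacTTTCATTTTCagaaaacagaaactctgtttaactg
Stat2: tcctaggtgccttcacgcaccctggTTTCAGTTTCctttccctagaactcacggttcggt
Trim30a: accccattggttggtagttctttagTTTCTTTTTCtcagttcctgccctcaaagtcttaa
Cxcl10: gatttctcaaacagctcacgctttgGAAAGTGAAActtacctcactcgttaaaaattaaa

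Ifit1 and Ifit3 each held 2 matches, on the opposite strand, starting 104 and 85 bases upstream of the start in Ifit1 and 156 and 122 in Ifit3. The other 5 shown held 1 each. Oas1a and Bst2 held 2 overlapping matches, and Isg15, which has no value here, held 3. A match is only a description of letters, and many functional elements differ from this strict core. Of the 9 members with a match and a value, 6 were higher by 2-fold or more in gamma/delta cells, and of 17 with a value and no match 7 were. Over all genes with a ratio or bound the share was 5.82%. The contrast between members with and without a match was not tested. The core of the gamma-activated site, TTCNNNGAA, which reads alike on both strands and overlaps the first core in Bst2, was held by 6 of the 28 (Bst2, Eif2ak2, Ifit2, Irf1, Isg20 and Oas1a) and by 8.13% of all genes.

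**Figure D2:**
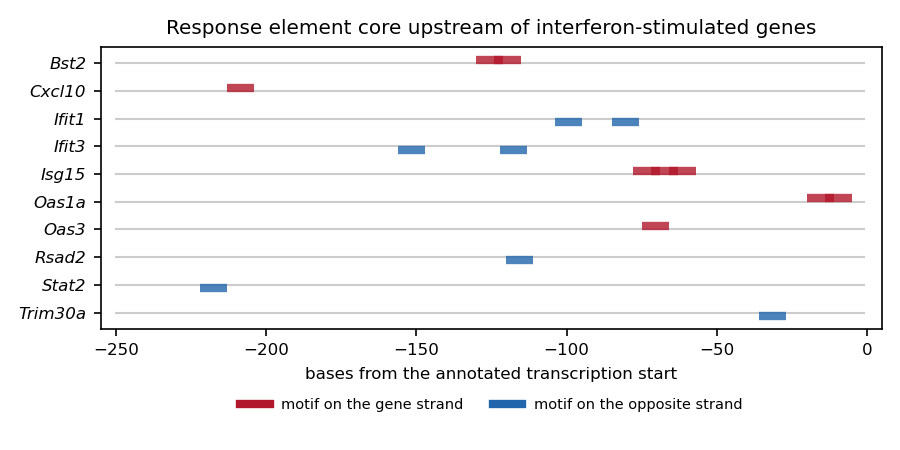
Position of each match to the response element core in the 250 bases upstream (x axis, bases from the annotated start) for the 10 members that hold one. Red blocks lie on the strand of the gene and blue blocks on the opposite strand. They range from 222 bases upstream in Stat2 to 14 in Oas1a, by their first base.

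Among the antiviral effectors, the IFIT proteins bind viral RNA and block its translation. Ifit1 read 4750.0 on the gamma/delta array against 274.1 on the other, a 17.3-fold difference and the largest ratio among the members above the floor on both arrays. Usp18, with a bound only, may differ by more. Ifit3, which forms complexes with other IFIT proteins, read 2674 and 367.9, a 7.27-fold difference. Ifit2 did not follow them: it read 589.7 and 630.5, a log2 ratio of -0.10. Each of the 3 is read by 1 probe set, so no second reading bears on the contrast between them. In the RefSeq gene order Ifit2 and Ifit3 are direct neighbours, and 3 protein-coding genes lie between Ifit3 and Ifit1. Genes of 1 cluster thus differed to unlike extents.

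The oligoadenylate synthetases make a messenger that switches on RNase L when they meet double-stranded RNA. All 5 members of the family read higher in gamma/delta cells. For 4 of them the alpha/beta signal was under the floor, so their bounds could go no other way. Oas3, above the floor on both arrays, read 1261 and 285.6 and was 4.42-fold higher in gamma/delta cells. Oasl2, at 775.0 and 100.8, was at least 3.18-fold higher. The other bounds stayed under 2-fold. Oas1a read 426.1 and 209.0 (at least 1.75-fold), Oasl1, a known brake on Irf7 translation, 374.2 and 52.2 (at least 1.54-fold), and Oas2 325.2 and 29.8 (at least 1.34-fold). Oas1a has close paralogs, and its probes may read them too.

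Rsad2 encodes viperin, which makes a nucleotide that ends viral RNA chains. It read 3354 and 314.8, a 10.7-fold difference, and a second probe set with 1405 and 289.6 gave 4.85-fold. The remaining one, at 126.6 and 236.3, was under the floor on both arrays. Averaging all 3 lowered the log2 ratio from 3.41 to 1.60. Cmpk2, a nucleotide kinase and the direct neighbour of Rsad2 in the genome, read 327.8 and 39.2, higher in gamma/delta cells by at least 1.35-fold. Its second probe set, at 21.1 and 40.8, was under the floor.

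Mx1, a GTPase that traps viral nucleoproteins, read 1919 and 235.7, just under the floor in alpha/beta cells, and was higher in gamma/delta cells by at least 7.88-fold. Isg20, an RNA exonuclease, read 535.7 and 37.2, at least 2.20-fold. Samd9l, which restrains translation and growth, read 3266 and 1856, a 1.76-fold difference. Bst2, known as tetherin because it holds budding virions at the membrane, read 767.7 and 466.0, a 1.65-fold difference. Ifitm3, which blocks viral fusion in endosomes, read 329.8 and 136.6, at least 1.35-fold. Of the 7 other effectors with a ratio or bound outside the IFIT and OAS families, 4 (Mx1, Isg20, Cmpk2 and Ifitm3) had a bound. These had to come out higher in gamma/delta cells, since their alpha/beta signals were under the floor. The 3 above it on both arrays (Rsad2, Samd9l and Bst2) also read higher there, and 1 of them, Rsad2, reached 2-fold. Among the bounds, Mx1 and Isg20 did.

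**Figure D3:**
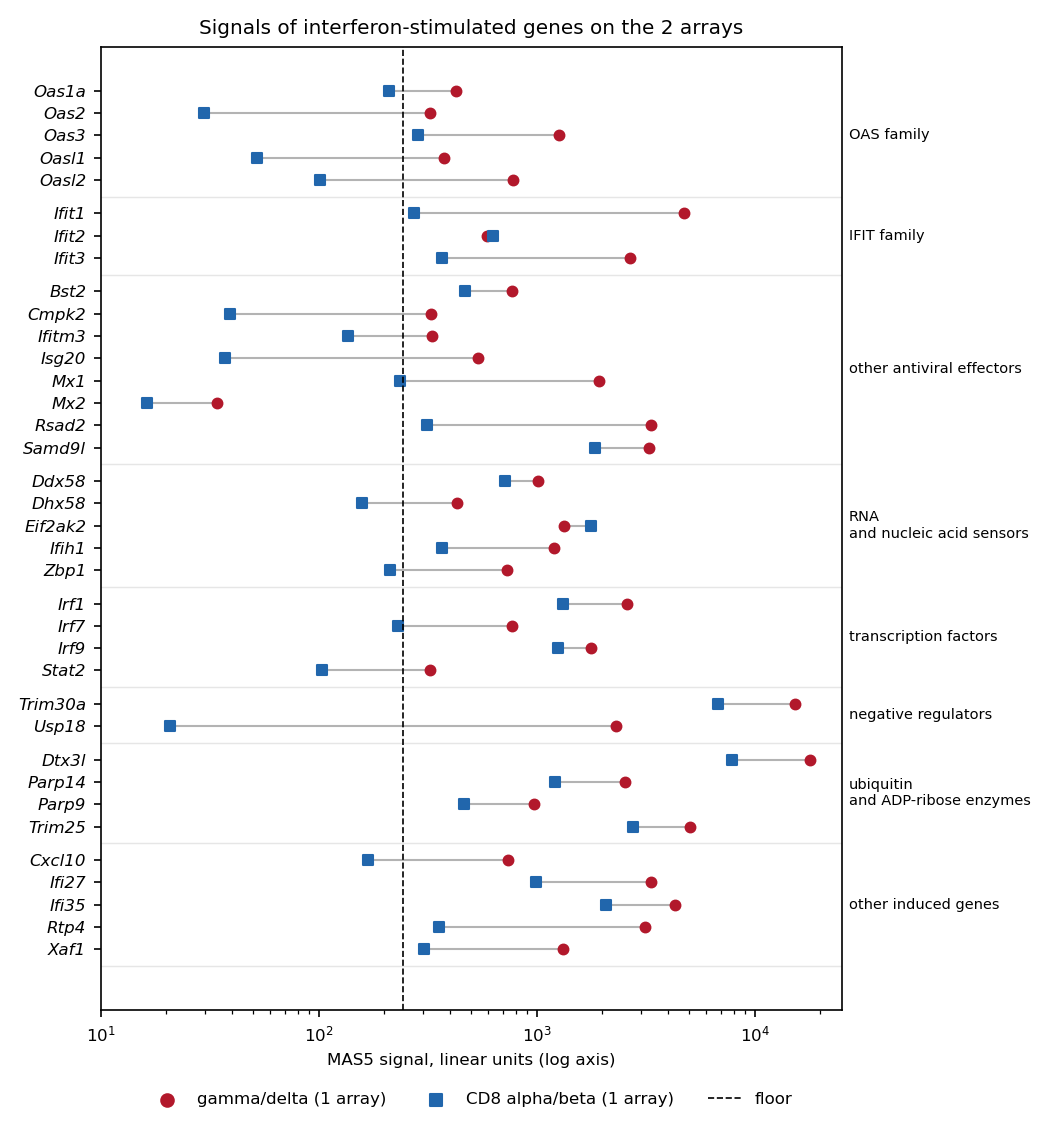
MAS5 signal (x axis, log scale) of the 36 measured members by functional group, with gamma/delta as red circles, alpha/beta as blue squares and the floor of 243.3 as a dashed line, 1 array each. The red circle lies to the right in 34 rows, and Ifit2 and Eif2ak2 are the exceptions.

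The sensors detect foreign RNA or unusual nucleic acids and set off interferon production or arrest translation. Here the members split. Ifih1, which encodes the long-RNA sensor MDA5, read 1196 and 367.1 and was 3.26-fold higher in gamma/delta cells. Zbp1, a sensor of Z-form nucleic acid that can trigger necroptosis, read 733.7 and 212.8 by the probe set used (at least 3.02-fold) and 652.7 and 38.1 by the other (at least 2.68-fold). Dhx58, or LGP2, which tunes the other RNA helicases, read 429.9 and 157.5, at least 1.77-fold, while its other 2 probe sets were under the floor.

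Ddx58, which encodes RIG-I, differed little, and its probe sets disagreed. They read 1014 and 714.5, 647.6 and 399.8, and 344.7 and 421.8, with log2 ratios of 0.50, 0.70 and -0.29, so no direction can be given. Eif2ak2 encodes PKR, the kinase that halts translation on double-stranded RNA, and was the only sensor lower in gamma/delta cells by the probe set used, at 1337 and 1771. That is 1.32-fold in favour of alpha/beta cells and short of the 2-fold call. Its other probe sets went the same way, at 709.6 and 915.7, and at 162.3 and 305.8, the last under the floor in gamma/delta cells.

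The transcription factors form the core of the response. Irf7, the amplifier of interferon and its targets, read 770.2 and 230.1 and was higher in gamma/delta cells by at least 3.17-fold. Irf1, which answers to both interferon types, read 2594 and 1316, a 1.97-fold difference just short of the call. Irf9, the DNA-binding partner of the STAT proteins, read 1780 and 1252, or 1.42-fold. Stat2, their other partner, read 322.7 and 103.0, at least 1.33-fold, and its second probe set was under the floor at 13.5 and 45.8. All 4 read higher in gamma/delta cells, Irf7 and Stat2 by bounds that could go no other way, and Irf7 alone reached 2-fold.

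Both members grouped as negative regulators were called, while the wider list of feedback inhibitors, given further on, went both ways. Oasl1, the brake on Irf7 translation grouped with its family above, was not called. Usp18 removes ISG15 from proteins and blocks the receptor chain Ifnar2. Its signals were 2303 for gamma/delta and 20.8 for alpha/beta, at least 9.46-fold, on 1 probe set. Trim30a, described as a brake on Toll-like receptor signalling, read 15308 and 6775, a 2.26-fold difference, and 1130 and 403.1 by its second probe set, a 2.80-fold difference. Trim30a belongs to a family of similar genes, and its probes may read more than one.

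The enzymes of ubiquitin and ADP-ribose transfer had log2 ratios between 0.88 and 1.19 by the probe sets used, with a median of 1.07. Dtx3l, a ubiquitin ligase, works in a pair with Parp9, and both lie beside Parp14 in the genome with no other protein-coding gene between. Dtx3l read 17870 and 7862 (2.27-fold), Parp9 971.2 and 463.5 (2.10-fold) and Parp14, a mono-ADP-ribosyltransferase, 2535 and 1211 (2.09-fold). The second probe set of Dtx3l, at 7157 and 4991, gave 1.43-fold. That of Parp14, at 699.6 and 821.9, pointed the other way with a log2 ratio of -0.23, so the direction for Parp14 depends on the probe set. Trim25, the ligase that works with RIG-I, read 5058 and 2757 (1.83-fold) and, by a second probe set, 2019 and 852.3 (2.37-fold). With probe sets averaged, Dtx3l and Parp14 had log2 ratios of 0.85 and 0.42 and were no longer called, and Trim25 was, at 1.73.

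The other induced genes were all called. Rtp4, a receptor chaperone with antiviral activity, read 3144 and 356.5, an 8.82-fold difference, and its second probe set, at 220.1 and 25.2, was under the floor. Xaf1, a partner of the apoptosis inhibitor XIAP, read 1317 and 303.9, or 4.33-fold, while a second probe set lay under the floor at 18.7 and 66.3. Ifi27 read 3326 and 991.5 (3.35-fold) and 1087 and 509.1 (2.14-fold) by its 2 probe sets. Cxcl10, a chemokine that draws Cxcr3-bearing T cells, read 736.4 and 168.3, at least 3.03-fold. Ifi35, which pairs with the adaptor Nmi, read 4322 and 2071, a 2.09-fold difference, and 1070 and 847.2 by a second probe set, 1.26-fold. With probe sets averaged, Rtp4 had a log2 ratio of 1.77 in place of 3.14. Ifi35 had a log2 ratio of 0.84 and Xaf1 had none, both signals being under the floor.

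The 57 probe sets were also counted. These counts are not independent of those by gene, since each gene value comes from 1 of them and 21 members have only 1. Of the 57, 47 had a ratio or bound. Among these, 25 were higher by 2-fold or more in gamma/delta cells, against 5.2% of all probe sets with 1 symbol and a ratio or bound. The 25 include bounds of Oasl2, Isg20, Mx1, Zbp1, Irf7, Usp18 and Cxcl10, which could go no other way. Towards alpha/beta cells 0 reached 2-fold, where the share counted by gene was 3.93% of all genes with a ratio or bound. A log2 ratio below 0 was read by 6 of the 47. These belonged to Eif2ak2, Ifit2, Ddx58 and Parp14. Several probe sets with a ratio or bound were at hand for 10 members, and they disagreed in sign in 2, Ddx58 and Parp14. As a scale, the pooled SD between probe sets of one gene on this pair of arrays was 0.50 on the log2 scale over 3317 genes. It is no replicate error.

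**Figure D4:**
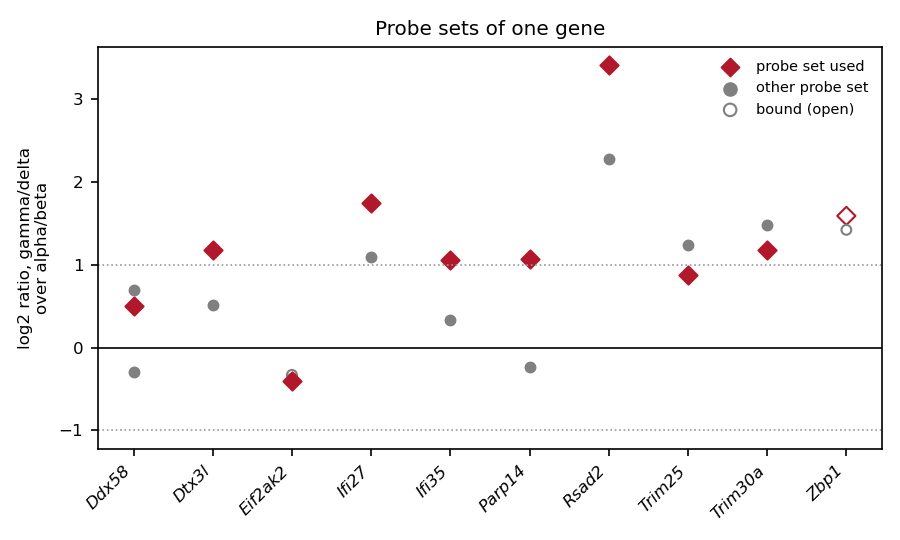
Log2 ratio (y axis, gamma/delta over alpha/beta) of each probe set with a ratio or bound, for the 10 members that have several. Red diamonds are the probe sets used, grey circles the others, open symbols bounds, and dotted lines 2-fold. Rsad2 lies highest, at 3.41 and 2.28, and Ddx58 and Parp14 have probe sets on both sides of 0.

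The rest of the interferon pathway was read from lists written out by function, with earlier results of these data known. Of all genes with a ratio or bound, 5.82% were 2-fold higher in gamma/delta cells and 3.93% 2-fold lower. Of 7 genes of receptors and proximal signalling with a ratio, Ifnar2, the signalling chain of the type I receptor, was higher in gamma/delta cells by 2.32-fold and 0 were 2-fold lower, with a median log2 ratio of -0.13. Its own 3 probe sets spread from -0.28 to 1.22, so the direction for Ifnar2 depends on the probe set. The kinases Jak1 and Jak2 and the interferon-gamma receptor chain Ifngr1 had log2 ratios of -0.50, -0.13 and -0.33. Probe sets of Jak1 ran from -1.12 to -0.50. Genes for the interferons themselves had mostly weak signals. Of 9 measured, 5 were under the floor on both arrays, Ifnb1 among them at 75.6 and 128.2, and of the 4 with a ratio or bound 0 reached 2-fold. Ifng read 353.4 and 5.28, at least 1.45-fold, Ifna11 443.1 and 237.1, at least 1.82-fold, and Ifna1, the 1 gene above the floor on both arrays, 537.2 and 865.5, a log2 ratio of -0.69.

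Of 10 sensing and induction genes with a ratio or bound, Irf3, which switches on interferon genes after RNA or DNA is sensed, was 3.15-fold higher in gamma/delta cells, with probe sets from -0.36 to 1.66, and 0 were 2-fold lower. The median was 0.40. Over all genes with a ratio or bound, 5.82% were 2-fold higher in gamma/delta cells and 3.93% 2-fold lower. The kinases Ikbke and Tbk1 and the adaptor Sting1 had log2 ratios of 0.36, -0.34 and 0.77. Feedback inhibitors went both ways, with a median of -0.14 over 7 genes. Socs3, an inhibitor of cytokine receptors best known for IL-6, read 9705 and 622.7, a 15.6-fold difference, and Cish was at least 2.79-fold higher, both towards gamma/delta cells. Socs1, the main inhibitor of the interferon receptors in this family, was under the floor on both arrays. Ptpn2, Ptpn11 and Irf2, a repressor of interferon targets, had log2 ratios of 0.92, -0.28 and -0.83.

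Other target lists, chosen with earlier results of these data known, resembled the members in part. Of all genes with a ratio or bound, 5.82% were 2-fold higher in gamma/delta cells and 3.93% 2-fold lower. Of 35 further interferon-stimulated genes with a ratio or bound, 15 were higher by 2-fold or more in gamma/delta cells and 1 was lower by as much, with a median log2 ratio of 0.83. The higher ones were Ly6e (4.55-fold), Ifi27l2a (3.71-fold), Uba7, the activating enzyme for ISG15 (at least 3.34-fold), Slfn5 (at least 3.32-fold), Rnf213 (3.15-fold), Helz2 (3.09-fold), Lgals9 (at least 3.09-fold), Trim30d (3.05-fold), Lgals3bp (at least 2.78-fold), Parp12 (2.57-fold), Pml (at least 2.44-fold), Tapbpl (2.42-fold), Oas1b (2.31-fold), Herc6 (2.31-fold) and Cd274 (2.02-fold). Probe sets lay on both sides of 0 for Ly6e (-0.25 to 2.19), Uba7 (-0.13 to 1.74), Rnf213 (-0.05 to 1.65), Pml (-0.13 to 1.29) and Herc6 (-0.23 to 1.21), so the direction for these 5 depends on the probe set. The lower one was Slfn1, a Schlafen family member, 5.73-fold higher in alpha/beta cells. Shisa5, Trim21 and Samhd1 had log2 ratios of 0.83, 0.99 and 0.23.

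Of 10 GTPases best known as targets of interferon-gamma, 7 were higher by 2-fold or more and 0 lower by as much. The shares over all genes with a ratio or bound were 5.82% and 3.93%. The GTPase list had a median of 1.29. The 7 were Gbp7 (4.75-fold), Gbp6 (4.51-fold), Gbp8 (2.74-fold), Gbp2 (2.52-fold), Irgm1 (2.51-fold), Iigp1 (2.39-fold) and Gbp3 (at least 2.12-fold). The second probe set of Gbp7 had a log2 ratio of 0.60, short of 2-fold. Ifi47, Igtp and Irgm2 had log2 ratios of 0.44, -0.06 and -0.12. In the class I antigen presentation list Psmb10 (2.88-fold), Nlrc5 (2.43-fold) and Psmb9 (2.10-fold) were called among 10 genes with a median of 0.64, and B2m, Tapbp and Psme1 had log2 ratios of 0.01, 0.60 and 0.68. Of 4 genes of the p200 family, Aim2, a sensor of DNA, was higher in alpha/beta cells by at least 2.05-fold and 0 were 2-fold higher in gamma/delta cells, with Mndal at 0.94.

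**Figure D5:**
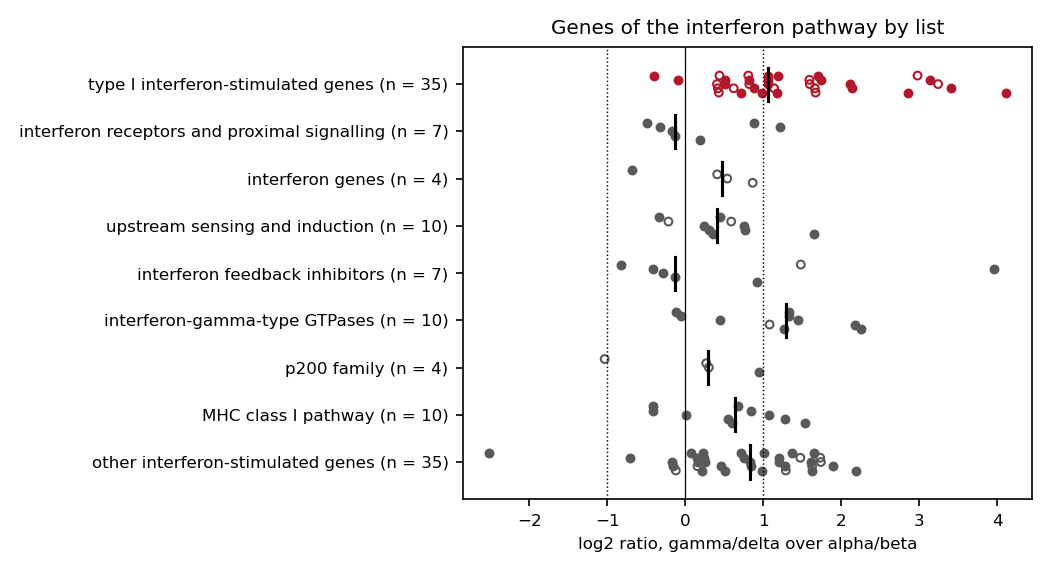
Log2 ratio (x axis, gamma/delta over alpha/beta) of each gene with a ratio or bound, by list, with the members in red on top. Filled circles are ratios, open circles bounds, black bars medians and dotted lines 2-fold. The medians run from -0.14 for the feedback inhibitors to 1.29 for the GTPases, with 1.07 for the members.

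Markers of other cells were read beside these values, since myeloid cells and plasmacytoid dendritic cells also express many of the members. Of 13 measured myeloid and dendritic markers, 8 were under the floor on both arrays and 0 of the other 5 reached 2-fold, and the summed signal was 2228 for gamma/delta and 2281 for alpha/beta. Lyz2, Csf1r and Tyrobp were under the floor on both. In the list for plasmacytoid dendritic cells, Siglech, its defining receptor, was under the floor at 111.1 and 17.8. Of 6 genes with a ratio or bound, 5 were higher in gamma/delta cells and 1, Ly6d, was lower, at 289.6 and 497.5. Tcf4 read 5005 and 2827, with probe sets from -0.17 to 1.24. Irf8 read 255.4 and 8.52, above the floor in gamma/delta cells only. Ccr9, which T cells also express, was the 1 that reached 2-fold. That list summed to 30639 and 6714, of which Ccr9 gave 23333 and 1974, with probe sets from -0.20 to 3.56. B cell markers summed to 3259 and 2762, and 0 of 5 reached 2-fold. The NK list summed to 8529 and 2066, where gamma/delta cells were higher in Nkg7 (6.03-fold) and Gzma (at least 5.93-fold), while Ncr1 and Tyrobp were under the floor. Erythroid and platelet markers were all under the floor, with sums of 333.3 and 496.9, and stromal markers summed to 3549 and 2972 with 0 of 5 at 2-fold. General T cell markers summed to 95236 and 61330, of which Cd3e gave 59573 and 34224. Of 7 with a ratio, Cd3g (2.31-fold) and Thy1 (2.15-fold) were higher by 2-fold or more in gamma/delta cells, and 0 were lower by as much. Cd3d and Cd247 had log2 ratios of -0.03 and -0.04, with probe sets of Cd247 from -1.13 to -0.04. Signal at the 3′ end over that at the 5′ end, a sign of RNA integrity, was 6.99 for gamma/delta and 3.12 for alpha/beta by the actin control. By the Gapdh control it was 3.06 and 3.24, and by that of the transferrin receptor 3.97 and 4.47, so only actin stood higher in gamma/delta cells. Any part of plasmacytoid dendritic or other admixed cells, of NK genes, of T cell content or of the actin ratio in the interferon values was not tested.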

How the data were processed

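RNA of 2 preparations was measured on 1 array each. The authors deposited an intensity for each probe set on each array. Per the submitters' processing notes, MAS5 and version 1.0 of Affymetrix Expression Console were used. Trimmed means, with 2% left out at each end, were 500.003 on both arrays, so the deposited values were scaled to 1 target. Values were used as deposited. MAS5 subtracts a mismatch estimate, so weak signals scatter widely.

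The table holds 45101 probe sets, 64 of them controls. The platform annotation gave 1 symbol to 34945 others, several to 932 and none to 9160. Floor, probe set choice and 2-fold call are described above. Every member with a probe set was to be named, and of each pathway list the genes past 2-fold and up to 3 others with the largest signal. Further names, such as Ifng, Ifnb1, Ifna1, Socs1, Sting1, Mndal and the Ifit3 promoter, were picked with their values in view. The members and lists were chosen with earlier results of these data known. Promoters came from RefSeq, and gene order (37 of the 39 members found) from a RefSeq gene table of GRCm38.p6, where neighbours are at most 5 protein-coding genes apart.

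The ratio and scaling code was tested on simulated data. Python 3.11.15, pandas 2.3.3, numpy 2.4.6 and statsmodels 0.14.6 (loess, span 0.3) were used. Alternatives were 3 scalings, 2 other floors, no floor (minimum 1) and 2 ways of choosing probe sets, and 1 more, the probe set with the lowest ratio, was added after seeing the data. Arrays have no read depth, and their number, 2, sets the precision.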

Additional observations from a re-analysis of the deposited data

Results flagged for a closer look

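A pair of probe sets carry a member's symbol together with another gene's and stood outside the comparison of genes, yet had signals above the floor on both arrays. The probe set shared by Isg15, the ubiquitin-like modifier, and Gm9706 read 876.9 for gamma/delta and 592.7 for alpha/beta, a log2 ratio of 0.57. The one shared by Trim30d and Trim30a read 499.1 and 275.5, a log2 ratio of 0.86. Neither reached 2-fold, and which gene gave the signal cannot be told apart.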

How the results depend on the processing

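The count of 20 members higher by 2-fold or more in gamma/delta cells was 20 after median scaling and after quantile normalization and 21 after loess. A floor at the 30th percentile gave 27, one at the 70th 15. There were 28 with no floor and 17 with probe sets averaged or with the probe set of the lowest ratio. The share of all genes called in this direction moved too, from 5.82% to 8.56% and 5.2% under the lower and higher floor, 16.0% with no floor, 4.8% with probe sets averaged and 3.79% with the lowest ratio, where 6.17% were called towards alpha/beta cells. Leaving out probe sets with the suffixes _x_at, _s_at and _a_at gave 13, of 24 members left. The count higher in alpha/beta cells was 0 under all 9 alternatives. The median log2 ratio of 1.07 lay between 0.98 and 1.34 except with no floor, which gave 1.68. Under the 70th percentile floor Oasl2, Isg20, Zbp1, Irf7 and Cxcl10 lost their calls, with bounds of 0.79, 0.26, 0.71, 0.78 and 0.72. Parp14 turned to -0.23 under its probe set of the lowest ratio. Called under the main setting and all 9 alternatives were 8 members: Oas3, Ifit1, Ifit3, Rsad2, Ifih1, Usp18, Parp9 and Rtp4. Setting aside the alternative without suffixed probe sets, there were 11, with Mx1, Trim30a and Ifi27 added. That alternative left Mx1, Trim30a and Ifi27 without a value. Signals under the floor carry little order, and no setting supplies the missing replicates. No paired analysis was possible because each group has 1 array.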
